A study of Mus musculus with 4 samples.

Results

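The 10 genes described here encode cytokines through which stromal cells are known to support lymphocytes, together with the receptors that receive them, measured in single cells of the mouse salivary gland. They are Il33, Il7, Il15, Il6, Lif and Kitl (the ligands) and Il1rl1, Il7r, Il2rb and Il6st (the receptors), chosen by gene symbol. Each of the 10 symbols matched 1 gene among all those listed for each library. The libraries were made from glands of female C57BL6/J mice after bead depletion of EpCAM-positive epithelium and Ter119-positive red cells, so they are enriched for stroma and immune cells. In the deligated group (2 libraries, mice aged 14 weeks) the ducts had been clipped for 14 days and then freed for 5 days, and in the homeostatic group (2 libraries, 12 weeks) no surgery had been done. The protocol mentions sublingual as well as submandibular glands and does not give the number of animals behind a library, so p-values measure only the spread between these libraries.

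Interleukin-33 is an alarmin that is stored in the nuclei of tissue cells and signals through ST2, the product of Il1rl1, which is the hallmark receptor of group 2 innate lymphoid cells (ILC2). Interleukin-7 and interleukin-15 are survival factors for T cells, innate lymphoid cells and natural killer (NK) cells: the first binds the receptor chain encoded by Il7r, the second is presented in trans by other cells and read through the shared chain encoded by Il2rb. Interleukin-6 and leukaemia inhibitory factor (Lif) both signal through gp130, the product of Il6st, and Kitl is stem cell factor, the ligand of the receptor Kit.

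The libraries held 4725 and 8713 (deligated) and 12854 and 13266 (homeostatic) cell barcodes with 35662241 to 53898793 UMIs (unique molecular identifiers, the count of captured RNA molecules) each. Between 82.2% and 92.2% of barcodes were retained, 33695 cells in all, and any pair of libraries shared 14 to 54 barcodes. Cells were grouped into classes called by resemblance to fixed markers, and 8 classes with at least 40 cells in every library were compared. The homeostatic libraries were counted by a later release of the counting software, so group, age and software cannot be told apart. The 10 genes were kept out of the clustering and out of the marker lists. Levels are given in CPM, the UMIs of the gene after scaling all UMIs of the class in that library to 1000000, and 4 values in a row stand for deligated 1, deligated 2, homeostatic 1 and homeostatic 2.

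Within most classes the groups fell into different clusters. Most NK/innate lymphoid-like cells of the deligated libraries were in a cluster led by Tnni1 and those of the homeostatic libraries in 1 led by Dscam. The same held for T cell-like cells (Cd8b1 against Themis), fibroblast-like cells (Cilp against Lsamp and Opcml), the main endothelial-like cells (Hlx against Dlg2 and Ifit2), arterial cells (Sema3g against Mannr) and ILC2-like cells (Areg against Stab2). Venous, mural-like, macrophage-like and Il17a-expressing T cell-like clusters held cells of all 4 libraries.

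The 8 endothelial markers summed to 11758 to 13539 CPM in the endothelial-like cells, and the 8 fibroblast markers to 27832 to 42095 in the fibroblast-like cells, with no marker at 0. Epithelial-like cells were present in spite of the depletion, with 50 and 142 cells in deligated and 3447 and 3755 in homeostatic libraries. The 10 epithelial markers summed to 12104, 35550, 32546 and 35510 CPM in these cells, of which the kallikrein Klk1 made up 9338, 32936, 30566 and 33371. Csf1r was at 230, 537, 486 and 517 in macrophage-like cells, so deligated 1 was lowest in both. An epithelial-like cluster led by Krt14, Krt17, Trp63 and Cnn1, genes of basal and myoepithelial cells, held 20, 7, 48 and 64 cells, which carried 86.0%, 22.4%, 7.02% and 9.64% of the UMIs of the class. Epithelial-like values therefore weigh this cluster differently in each library. Markers of NK and T cells, 19 genes, were also found at low level in the stroma. In fibroblast-like cells they summed to 21.4, 213, 9.13 and 4.87 CPM, and in endothelial-like cells to 28.6, 128, 17.7 and 12.6. Deligated 2 was thus the highest in both.

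The share of all genes called in a class (edgeR quasi-likelihood, Benjamini-Hochberg adjusted p under 0.05) is the background against which counts of the 10 genes are read. In fibroblast-like cells 1 of 5 tested members was higher and 2 were lower in the deligated libraries, where 8.75% of all genes were higher and 18.4% lower (27.2% in all). The higher member, Il7r, passed the filter through the deligated libraries alone, so its call adds nothing to that count. Endothelial-like cells had 1 of 8 higher and 1 lower against 13% and 22.4% (35.4% in all). NK/innate lymphoid-like cells had 1 of 6 higher and 1 lower against 17% and 27.3% (44.2% in all). With so few members tested, 1 call moves each share by a large step.

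T cell-like cells had 1 of 4 members higher and 0 lower against 4.38% and 13.7% (18% in all), and ILC2-like cells 1 of 5 higher and 0 lower against 8.2% and 16.5% (24.7% in all). The ILC2-like call, Lif, also passed the filter through the deligated libraries alone and adds nothing to that count. Macrophage-like cells had 2 of 6 higher and 1 lower against 8.18% and 13.2% (21.4% in all). Epithelial-like cells had 3 of 6 higher and 0 lower against 2.67% and 0.658% (3.32% in all), with 50 cells in their smallest library and a makeup that differed between the libraries. Mural-like cells had 0 of 3 by edgeR against 1.21% and 6.72% (7.93% in all). Of these 3, Il15 passed the filter through the homeostatic libraries alone. Members that passed the filter on low counts are a part of the 10, and no set was tested.

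The gene bodies, with exons and introns, lie in GRCm38 (GENCODE M21) as follows. Of the ligands, Il33 at chr19:29925114-29960718 (plus strand), Il7 at chr3:7569994-7613760 (minus strand) and Il15 at chr8:82331632-82403222 (minus strand) are followed by Il6 at chr5:30013114-30019981 (plus strand), Lif at chr11:4257557-4272514 (plus strand) and Kitl at chr10:100015630-100100416 (plus strand). The receptors are Il1rl1 at chr1:40429570-40465415 (plus strand), Il7r at chr15:9505788-9530176 (minus strand), Il2rb at chr15:78479256-78495271 (minus strand) and Il6st at chr13:112464070-112510086 (plus strand).

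Of the 10 genes, 7 had an entry in the RefSeq promoter table (GRCm38.p6), read here as the 250 bases before each annotated start. The stretches of Il33 and Il1rl1 are shown because the pair forms the clearest source and receiver axis in these data, and those of Il6 and Lif because both are rapidly induced cytokines of the gp130 family. Capitals mark matches, on either strand, to AGATAA (the GATA motif), TGANTCA (AP-1) or the 10-base NF-kB motif, and no matches overlap.
Il33 upstream start, chr19:29924863-29925112, plus strand: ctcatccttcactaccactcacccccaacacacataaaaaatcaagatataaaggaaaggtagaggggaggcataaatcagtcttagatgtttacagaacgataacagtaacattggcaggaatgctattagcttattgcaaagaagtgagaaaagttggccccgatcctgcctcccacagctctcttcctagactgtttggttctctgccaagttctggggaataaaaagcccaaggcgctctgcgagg
Il33 downstream start, chr19:29945540-29945789, plus strand: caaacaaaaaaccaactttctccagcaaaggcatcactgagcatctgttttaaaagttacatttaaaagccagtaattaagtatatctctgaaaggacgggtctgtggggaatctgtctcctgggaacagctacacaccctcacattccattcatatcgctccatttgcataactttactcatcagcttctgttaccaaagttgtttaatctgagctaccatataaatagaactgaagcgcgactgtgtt
Il1rl1 upstream start, chr1:40429320-40429569, plus strand: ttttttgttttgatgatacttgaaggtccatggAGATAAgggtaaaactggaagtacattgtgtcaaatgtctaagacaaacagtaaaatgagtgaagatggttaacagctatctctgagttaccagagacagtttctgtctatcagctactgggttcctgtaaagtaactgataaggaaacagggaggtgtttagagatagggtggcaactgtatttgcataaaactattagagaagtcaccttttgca
Il1rl1 downstream start, chr1:40439379-40439628, plus strand: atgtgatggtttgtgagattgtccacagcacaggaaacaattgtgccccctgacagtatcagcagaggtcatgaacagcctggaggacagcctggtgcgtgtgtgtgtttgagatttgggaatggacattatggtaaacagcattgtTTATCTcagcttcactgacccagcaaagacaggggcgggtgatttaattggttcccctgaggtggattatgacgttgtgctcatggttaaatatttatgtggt
Il6, chr5:30012864-30013113, plus strand: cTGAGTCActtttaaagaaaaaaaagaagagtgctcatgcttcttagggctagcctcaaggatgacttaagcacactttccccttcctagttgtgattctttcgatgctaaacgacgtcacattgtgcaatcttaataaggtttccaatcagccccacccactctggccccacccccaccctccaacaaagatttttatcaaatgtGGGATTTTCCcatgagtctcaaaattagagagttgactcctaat
Lif, chr11:4257318-4257567, plus strand: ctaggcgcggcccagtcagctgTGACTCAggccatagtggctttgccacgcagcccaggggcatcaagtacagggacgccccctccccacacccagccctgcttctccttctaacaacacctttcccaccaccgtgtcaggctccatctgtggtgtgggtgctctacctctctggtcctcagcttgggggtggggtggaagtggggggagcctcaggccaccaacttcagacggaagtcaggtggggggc

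Both starts of Il1rl1 carried 1 AGATAA match, 217 and 103 bases before the start, and 9.99% of all 32851 mouse promoter stretches of this length held that motif. Lif had an AP-1 match 228 bases before its start, and Il6 an AP-1 match at 249 and an NF-kB match at 44 bases. The AP-1 motif occurred in 6.75% and the NF-kB motif in 0.356% of promoters. Il7r held 1 match to the STAT motif TTCNNNGAA (7.02% of promoters). Neither start of Il33 held any of these motifs or the interferon regulatory factor (IRF) motif (2.98% of promoters), and none was found in the stretches of Il6st and Kitl. A match describes these letters and is not a measured binding site.

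Il33 was a fibroblast transcript in these libraries, and its level in these cells did not separate the groups. Fibroblast-like cells held 97.1%, 97.5%, 90.6% and 90.7% of all Il33 UMIs. Their level was 318, 353, 377 and 308 CPM, from 1517, 2381, 743 and 568 UMIs. The groups overlapped, with means of 335 ± 24.8 and 342 ± 48.9 (SD, n = 2 each). The log2 fold change was 0.03 with a standard error of 0.13 (edgeR quasi-likelihood, adjusted p = 0.901). Outside the epithelial-like class, the other 6 compared classes had at most 3.16 CPM in any library, and mural-like cells, the contractile cells of vessel walls, had 0 to 1.21.

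The gene as a whole was nevertheless more abundant in the deligated libraries, with 48.0, 51.8, 18.6 and 14.6 CPM over all retained cells. Fibroblast-like cells made up 8.22% and 9.43% of deligated but 2.78% and 2.54% of homeostatic cells. The share of cells in the suspension followed depletion and dissociation as well as the tissue, and these cannot be told apart. After thinning every cell to 1000 UMIs, 20.1%, 26.4%, 28.6% and 22.9% of fibroblast-like cells held an Il33 UMI, against 0%, 0.228%, 0% and 0% of mural-like cells. The unthinned shares in fibroblast-like cells were 88.5%, 81.6%, 75.9% and 68.2%, at median depths of 13087, 9257, 6668 and 6588 UMIs per cell.

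Fibroblast-like cells with a UMI of Pi16 or Dpp4, markers of adventitial fibroblasts, had 322, 386, 593 and 326 CPM of Il33, and the other fibroblast-like cells 315, 335, 334 and 304. Both kinds therefore carried the transcript, and homeostatic 1 stood highest among the Pi16 or Dpp4 cells, of which it held 41. In epithelial-like cells Il33 was at 146, 9.35, 10.5 and 6.91 CPM. The high value rests on 36 UMIs of deligated 1, a library with 50 such cells, and fibroblast markers in the class summed to 500, 472, 152 and 114 CPM. All 36 came from the cluster led by Krt14, where the level was 170, 0, 132 and 55.6 CPM and the groups overlapped, while the other epithelial-like cells had 0, 12.1, 1.39 and 1.72. That split was made after the values were seen. The part of fibroblast transcripts in the result was not tested, and the difference was not called (log2 fold change 2.72 ± 0.74 SE, edgeR adjusted p = 0.0881). The difference was called under 5 of 11 alternatives (no filter, the replicate block, without deligated 2, without homeostatic 1 and at a finer clustering), and it was -0.345 without deligated 1.

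**Figure D1:**
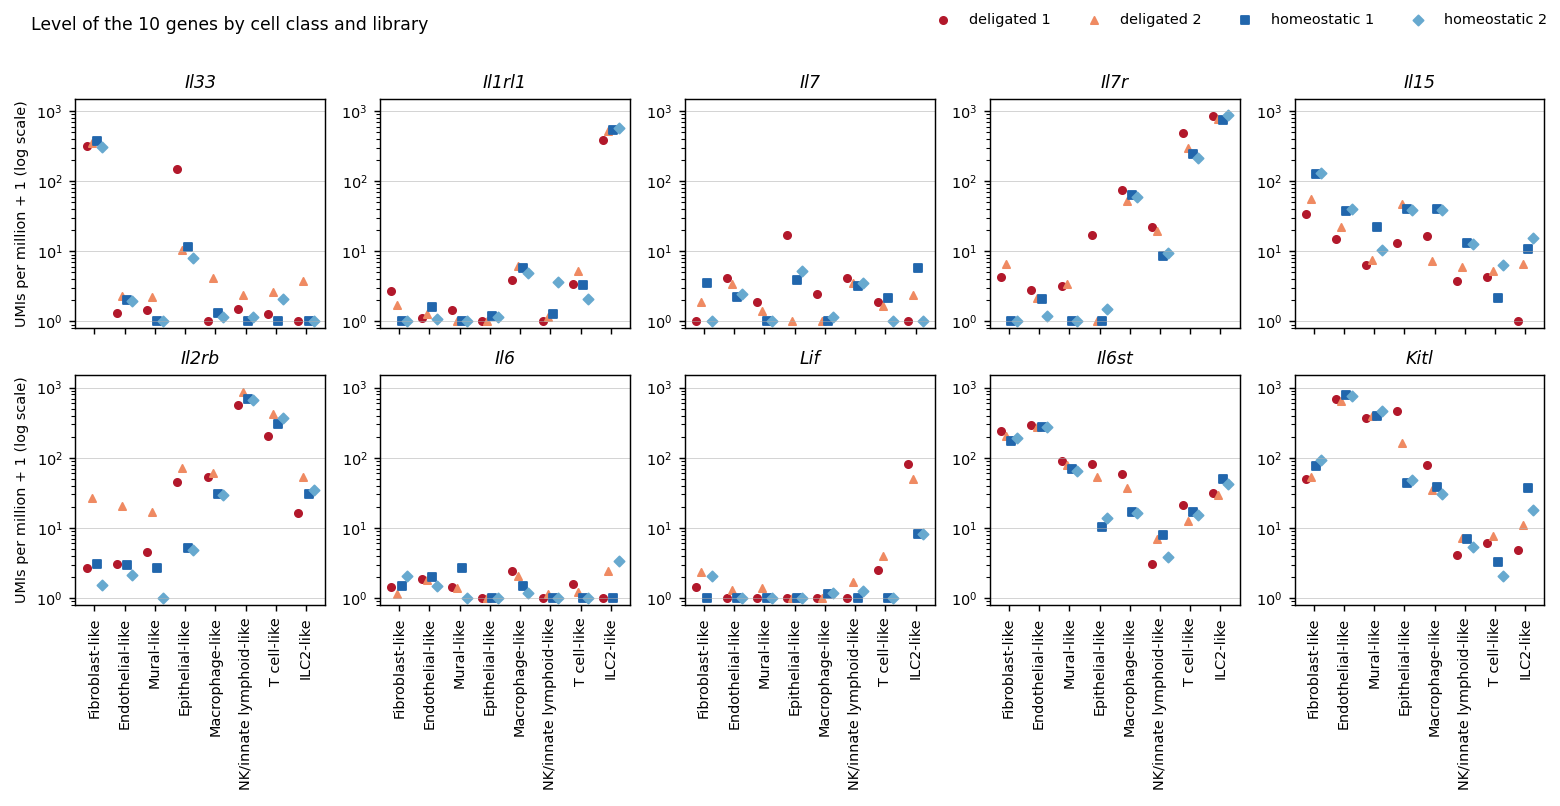
Level of each of the 10 genes (CPM plus 1, log scale) in 8 cell classes, 1 point per library. Il33 sits in fibroblast-like cells at 308 to 377 CPM, Il1rl1 in ILC2-like cells at 385 to 569, and Kitl in endothelial-like cells at 645 to 790.

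Il1rl1 marked the ILC2-like cells almost alone. These cells (46, 132, 78 and 81 per library) were named from other genes, among them Gata3, Rora, Il17rb, Klrg1 and Areg. The lists for that naming were chosen with the clusters in view. Il1rl1 was among the leading genes of both clusters, and Lif among those of the deligated one. The name may therefore not be independent of these 2 genes. They held 82.9%, 91.1%, 83.2% and 84.0% of all Il1rl1 UMIs, at 385, 521, 542 and 569 CPM. The next class, macrophage-like cells, had 2.87 to 5.26. Deligated 1 was the lowest library and both deligated values lay below both homeostatic values, but the difference was small beside its error (log2 fold change -0.12, SE 0.16, edgeR adjusted p = 0.643). In thinned cells, 30.4% to 40.2% of ILC2-like cells held an Il1rl1 UMI (Clopper-Pearson 95% interval of 17.7% to 45.8% in deligated 1), against 0% to 0.19% of NK/innate lymphoid-like cells. Unthinned, the shares were 81.5% to 87.9% at median depths of 4890 to 5679 UMIs, and 0% to 0.284% in NK/innate lymphoid-like cells at 5517 to 6259.

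Il7r was highest in the same ILC2-like cells, followed by T cell-like, macrophage-like and NK/innate lymphoid-like cells, and the ranges of neighbours in that order did not overlap. ILC2-like cells had 854, 773, 756 and 865 CPM, with overlapping groups and an edgeR log2 fold change of 0.14 (SE 0.14; adjusted p = 0.485). Macrophage-like cells had 73.2, 50.5, 61.7 and 58.6 and also overlapped between groups.

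In T cell-like cells Il7r was at 484, 297, 246 and 212 CPM, both deligated libraries above both homeostatic ones. It was called higher (log2 fold change 0.88 ± 0.24 SE, edgeR adjusted p = 0.0398), but the call was lost under 5 alternatives, among them the removal of either homeostatic library (largest adjusted p = 0.24 when a library was left out). A cluster led by Il17a and Cd163l1, genes of interleukin-17-producing gamma delta T cells, carried much of the transcript, with 1248, 1755.5, 992 and 805 CPM. It made up 25.2%, 7.39%, 6.04% and 12.5% of T cell-like cells. It held 69.4%, 46.1%, 21.5% and 40% of their Il7r UMIs. Outside that cluster the level was 203, 174, 204 and 142 CPM, and the groups overlapped. That split was chosen after the values were seen and was not tested. T cell-like cells with a UMI of Cd8a or Cd8b1 had 230, 199, 182 and 138, and those with Cd4 and neither Cd8 gene 328, 334, 369 and 315.

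NK/innate lymphoid-like cells had far less Il7r, 21.1, 18.5, 7.55 and 8.57 CPM from 121, 237, 51 and 61 UMIs, and here the deligated libraries were higher without overlap. The log2 fold change was 1.37 ± 0.18 SE by edgeR (adjusted p = 0.000383). It kept its call under all 13 alternatives, with a largest adjusted p of 0.00477. The early and dissociation genes summed to 4459, 5065, 3039 and 2933 CPM in this class and to 5064, 5528, 2590 and 2698 in T cell-like cells, and their part in the Il7r results was not tested. T cell-like cells, which hold more Il7r, were 13.7% and 10.2% of the cells in the deligated and 1.40% and 1.39% in the homeostatic libraries. Cd3e, a T cell receptor component, was at 1.57, 4.59, 6.66 and 4.64 CPM in the NK/innate lymphoid-like class, with overlapping groups, and at 815, 714, 524 and 549 in T cell-like cells. All 9 T cell markers summed to 432, 507, 451 and 420 in the NK/innate lymphoid-like class, also overlapping. Among them Trbc2 (211, 205, 157 and 169) and Lat (48.2, 62.1, 39.9 and 36.1) were higher in both deligated libraries. Trac and Cd8b1 followed the same order at low level, Cd4 was lower in both, and Cd3d, Cd3g and Cd8a overlapped. The part of T cell RNA in the Il7r result was not tested. The change in NK/innate lymphoid-like cells was not shown to differ from that in T cell-like cells (difference 0.50, SE 0.22, edgeR adjusted p = 0.919).

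**Figure D2:**
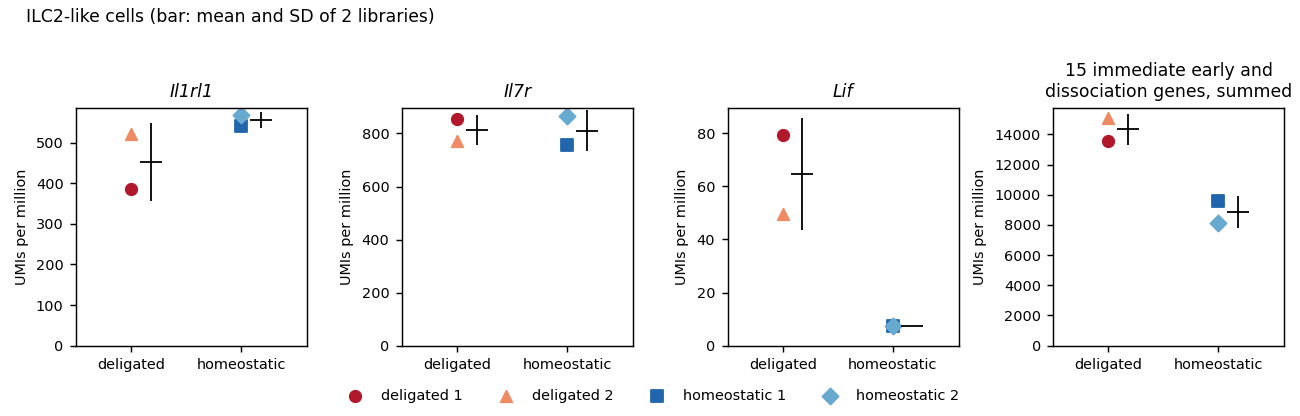
Il1rl1, Il7r, Lif and the sum of 15 immediate early and dissociation genes in ILC2-like cells (CPM), 1 point per library, with the mean and SD of 2 libraries per group. The receptors lie at like levels in both groups, whereas Lif (79.4 and 49.6 against 7.29 and 7.23) and the early genes are higher in the deligated libraries.

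Lif, a cytokine, was found mainly in the ILC2-like cells and hardly in the stroma. The level was 79.4, 49.6, 7.29 and 7.23 CPM, from 21, 35, 3 and 3 UMIs. Both deligated libraries lay above both homeostatic ones (log2 fold change 3.13 ± 0.50 SE, edgeR adjusted p = 5.73e-05). Lif passed the filter on low counts through the deligated libraries alone, and with no such filter its edgeR adjusted p was 0.00358. The ratio of the summed levels was 7.94, with an exact 95% interval of 3.43 to 22.6 that covers counting error only. ILC2-like cells held 75.0%, 48.6%, 75.0% and 37.5% of each library's Lif UMIs. T cell-like cells followed at 1.49, 2.96, 0 and 0 CPM, and those of the Il17a cluster held 5 and 12 UMIs in the deligated libraries. Fibroblast-like, endothelial-like and mural-like cells had at most 1.33.

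Immediate early genes, which are also induced by tissue dissociation, moved with Lif. Of the 15 listed, 14 were tested in ILC2-like cells, and 13 were higher and 1 (Atf3) was lower in the deligated libraries. Over all genes of the class, 8.2% were higher and 16.5% lower. The listed genes had a median log2 fold change of 0.87, against 0.04 over the 5405 genes tested. Their sum was 13589, 15058, 9594 and 8104 CPM. Fos rose by 0.89 (SE 0.13), Junb by 1.10 (0.11) and Dusp1 by 1.51 (0.16) on the log2 scale. Both AP-1 genes and Lif were thus higher in the same libraries, and their part in the result was not tested. With the intron-length trend described below removed, 6 of the listed early genes were called higher and 0 lower, while calls over all genes fell from 1333 to 483.

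Il6 was close to the limit of detection in every class. Each library held 19, 21, 20 and 11 UMIs in all, of which endothelial-like cells held 63.6% to 75.0%. Its mean level reached 0.96 CPM in ILC2-like cells, its highest class, and 0.54 in fibroblast-like cells. It passed the filter on low counts only in endothelial-like cells, where it was not called, from 49 UMIs in all. In the other classes a change in Il6 could not be tested at this depth.

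Kitl was mainly a vessel transcript. Endothelial-like cells held 87.7%, 85.6%, 89.6% and 89.1% of its UMIs, at 686, 645, 790 and 755 CPM. Mural-like cells came next by mean among the compared classes with 367, 396, 390 and 465, a range that did not overlap the endothelial one. In deligated 1 alone, epithelial-like cells lay above them at 460. In thinned cells 44.2% to 49.2% of endothelial-like and 26.4% to 39.8% of mural-like cells had a Kitl UMI, against 0.222% to 0.572% of NK/innate lymphoid-like cells. The unthinned shares were 83.3% to 86.7%, 61.8% to 84.4% and 1.67% to 3.53%. Arterial endothelial-like cells had the most, with 951, 1020.2, 1232 and 1091.5 CPM, and venous ones 410, 347, 428 and 453. In the vessel wall, smooth muscle-like cells had 434, 481, 458 and 490 and pericyte-like cells 255, 249, 245 and 381.

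By group, Kitl in endothelial-like cells was lower in both deligated libraries, but by little (log2 fold change -0.19, SE 0.10, edgeR adjusted p = 0.176). Mural-like cells overlapped between the groups (-0.17, SE 0.15, adjusted p = 0.558). In fibroblast-like cells the level was 48.4, 52.2, 74.5 and 92.1, without overlap, and Kitl was called lower by edgeR (-0.67, SE 0.15, adjusted p = 0.00959). Kitl has 78.9 kb of introns, the longest of the 10 genes. Genes with introns of that length were lower in deligated fibroblast-like cells by a fitted -0.45 on the log2 scale. With that trend removed the fibroblast difference was -0.22 (edgeR adjusted p = 0.376) and the endothelial one turned to 0.10 (adjusted p = 0.482). Leaving out either homeostatic library, or thinning, ended the fibroblast call as well (largest adjusted p without a library 0.193).

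**Figure D3:**
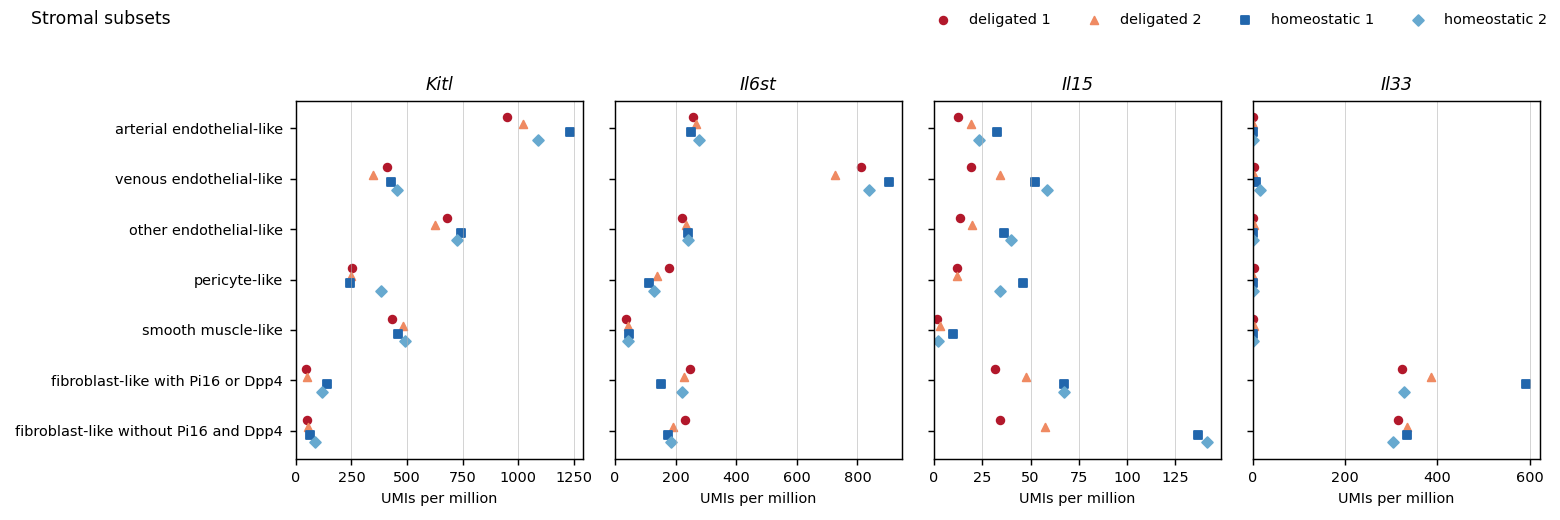
Kitl, Il6st, Il15 and Il33 in 7 subsets of stromal cells (CPM, linear axes), 1 point per library. Arterial cells carry the most Kitl (951 to 1232), venous cells the most Il6st (726 to 903), fibroblasts without Pi16 and Dpp4 in the homeostatic libraries the most Il15 (137 and 142), and both kinds of fibroblast the Il33.

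Il15 was the ligand that differed between the groups in the most classes: it was lower in the deligated libraries in 4 of the 6 classes where it was tested. Fibroblast-like cells had 33.1, 53.9, 125 and 128 CPM, from 158, 364, 247 and 237 UMIs. Both homeostatic libraries lay above both deligated ones, and edgeR gave a log2 change of -1.48 (SE 0.19, adjusted p = 0.000382). Endothelial-like cells had 13.8, 20.9, 36.6 and 39.0 (-1.10, SE 0.17, adjusted p = 0.00436).

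Macrophage-like cells, which are known to present interleukin-15, had 15.8, 6.31, 39.4 and 37.2 (-2.11, SE 0.33, adjusted p = 0.00808), the deligated values from 11 and 6 UMIs. Most markers of this class moved too: Adgre1 was at 74.6, 185, 302 and 294 CPM and C1qa at 1921, 3955, 4787 and 4832. C1qb, C1qc, Cd68 and Fcgr1 were also lower in both deligated libraries. Csf1r (230, 537, 486 and 517) and Mrc1 (5.74, 55.8, 38.8 and 46.3) overlapped between the groups. NK and T cell markers summed to 1377, 830, 416 and 311. The part of these shifts in the result was not tested. NK/innate lymphoid-like cells had low levels of 2.79, 5.06, 12.0 and 11.7 and were also lower (-1.41, SE 0.26, adjusted p = 0.00236). Mural-like cells followed the same order at 5.29, 6.47, 21.4 and 9.43 CPM but did not pass the test (adjusted p = 0.132), and the gene passed the filter there through the homeostatic libraries alone. Epithelial-like cells, at 12.2, 46.8, 38.6 and 37.7, overlapped and were not called (-0.93, SE 0.47, adjusted p = 0.279). In epithelial-like cells outside the cluster led by Krt14 it was at 0, 54.3, 38.7 and 39.0, also overlapping. The difference was -0.16 without deligated 1, and -2.33 and called without deligated 2 (adjusted p = 0.00562). In no class was Il15 called higher.

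Il15 has 69.3 kb of introns, and removal of the intron-length trend made each of the 4 called differences smaller while the calls stood. The values were -1.09 in fibroblast-like (adjusted p = 0.00411), -0.86 in endothelial-like (0.0135), -1.66 in macrophage-like (0.0269) and -0.85 in NK/innate lymphoid-like cells (0.0358). Whether the counting of intron reads differed between the software releases is not stated, and its part in the result was not tested beyond this. Thinning ended the call in the macrophage-like and NK/innate lymphoid-like cells. The fibroblast and endothelial calls held under all 13 alternatives.

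Among fibroblast-like cells, those without Pi16 and Dpp4 had 34.3, 57.5, 137 and 142 CPM of Il15, and those with either gene 31.5, 47.5, 67.6 and 67.1. Venous endothelial-like cells had 19.1, 34.3, 52.5 and 58.6, and pericyte-like cells 11.8, 12.1, 46.0 and 34.0. The order of the groups was thus the same in each of these subsets. The makeup of the Il15 pool, which depends on both the class shares and the level in each class, also differed: fibroblast-like cells held 37.9% and 42.5% of Il15 UMIs in the deligated libraries and 17.4% in each homeostatic one, while macrophage-like cells held 2.64% and 0.70% against 17.7% and 15.9%. The difference in Il15 was not shown to vary between fibroblast-like and endothelial-like cells (-0.25, SE 0.15, edgeR adjusted p = 0.381).

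Il15ra, the chain that presents interleukin-15, was not called in the main stromal classes. In fibroblast-like cells it was at 17.2, 24.0, 29.9 and 27.1 (log2 difference -0.40, SE 0.21, by edgeR, adjusted p = 0.183), and in endothelial-like cells at 22.9, 38.6, 30.7 and 33.4, with overlap (-0.04, SE 0.21, adjusted p = 0.896).

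**Figure D4:**
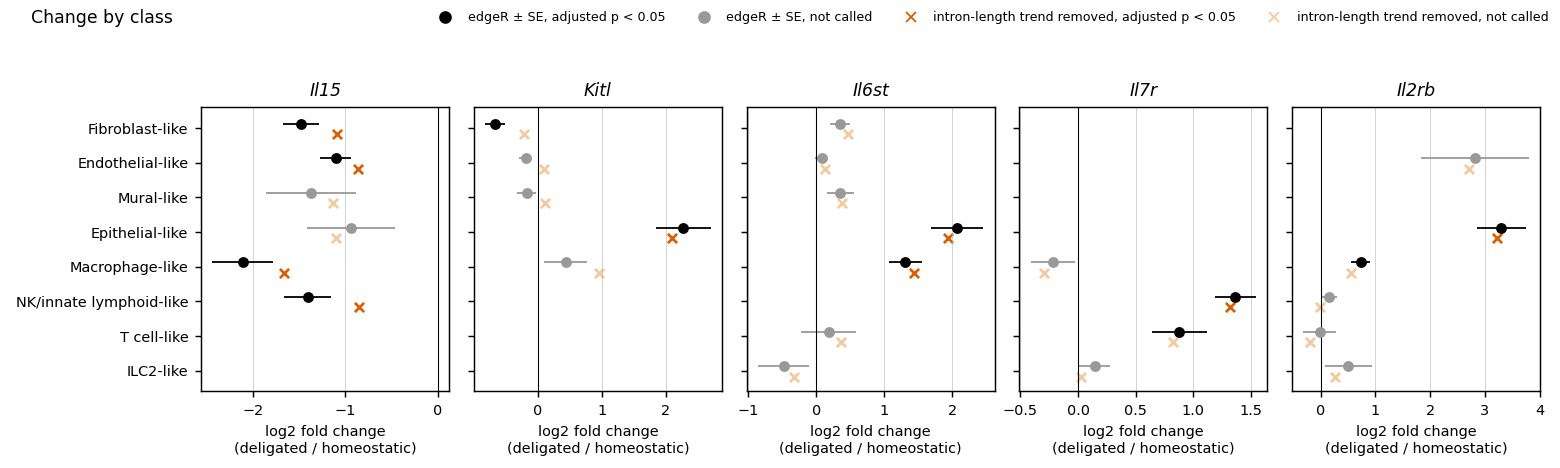
Log2 fold change of Il15, Kitl, Il6st, Il7r and Il2rb (deligated over homeostatic, edgeR, with standard error) in each class where the gene was tested and a group mean reached 10 CPM. Crosses give the value with the intron-length trend removed. Il15 lies below 0 in all 6 classes shown, at -2.11 to -0.93. The epithelial-like value, -0.93, was not called and rests on 1 library (-0.16 without deligated 1). The mural-like value was not called either, and Il15 passed the filter there through the homeostatic libraries alone.

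Il2rb, the receiving chain for interleukin-15, was highest in NK/innate lymphoid-like cells (571, 855, 683 and 672 CPM) and next in T cell-like cells (201, 417, 303 and 368). In both classes the groups overlapped and deligated 1 was the lowest and deligated 2 the highest library. The log2 fold changes were 0.16 (SE 0.14, edgeR adjusted p = 0.391) and -0.02 (SE 0.30, adjusted p = 0.977). Since the deligated libraries span the homeostatic ones, the call depended on which was left out: without deligated 1 the change in NK/innate lymphoid-like cells became 0.40 and was called, and without deligated 2 it was -0.11. In T cell-like cells leaving out either deligated library gave a call, at 0.41 and -0.60. The NK/innate lymphoid-like class held 80.6% to 89.4% of all Il2rb UMIs. Its common gamma chain, Il2rg, was called higher in the class, at 310, 338, 199 and 227 (0.70, SE 0.10, adjusted p = 0.000567), and remained so with the intron-length trend removed (0.39, adjusted p = 0.0166).

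Outside the lymphocytes, Il2rb was also detected. Endothelial-like cells had 2.05, 19.3, 1.92 and 1.12 CPM and fibroblast-like cells 1.68, 25.5, 2.03 and 0.54, with deligated 2 highest in both, as for the NK and T cell markers in those cells. The endothelial difference was not called (2.82 ± 0.99 SE, edgeR adjusted p = 0.0711). It was 0.52 without deligated 2 and was called without deligated 1 (3.63) and under the crossed replicate block (2.58). Il7r in fibroblast-like cells (3.35, 5.63, 0 and 0 CPM, from 16, 38, 0 and 0 UMIs) was called (adjusted p = 0.00466) against 0 UMIs in both homeostatic libraries, and the call was lost without either homeostatic library. In macrophage-like cells Il2rb was at 53.1, 58.9, 29.0 and 28.5 and was called higher (0.74, SE 0.17, adjusted p = 0.0307), a call lost under 7 alternatives, where the NK and T cell markers summed to 1377, 830, 416 and 311 CPM. In epithelial-like cells Il2rb was at 44.7, 70.2, 4.24 and 3.80 and was called higher by edgeR (3.30, SE 0.45, adjusted p = 0.0129). That call was lost without either homeostatic library. The marker sums there were 297, 538, 47.8 and 60.2. The part of lymphocyte RNA in these results was not tested.

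Il7 was scarce. Epithelial-like cells had 4, 0, 16 and 25 UMIs (16.3, 0, 2.95 and 4.32 CPM). Endothelial-like cells had 3.22, 2.37, 1.23 and 1.46 CPM, from 47, 41, 18 and 21 UMIs, and NK/innate lymphoid-like cells 3.13, 2.49, 2.22 and 2.53. Within the endothelium the venous cells had the most, with 17.8, 11.4, 3.28 and 13.0 from 28, 14, 2 and 8 UMIs. The class difference was called (log2 fold change 1.06, SE 0.31, edgeR adjusted p = 0.0432), but not by DESeq2, not with the replicate block and not without deligated 1 or either homeostatic library, where the adjusted p reached 0.291. Fibroblast-like cells had 0, 0.889, 2.54 and 0. The listed gene Gm16685 overlaps Il7 on the other strand, and whether counting used strand is not stated.

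Il6st, the shared signalling chain for interleukin-6 and Lif, was expressed across the stroma and was steady in its main class. Endothelial-like cells had 289, 273, 270 and 271 CPM (log2 difference 0.08, SE 0.09, by edgeR, adjusted p = 0.566), and venous cells among them 811, 726, 903 and 839. Fibroblast-like cells had 238, 205, 170 and 191, both deligated libraries above both homeostatic ones, without a call (0.35, SE 0.15, adjusted p = 0.105). Mural-like cells had 89.0, 78.1, 67.4 and 62.9, also without a call (0.35, SE 0.19, adjusted p = 0.328). The difference between the fibroblast-like and endothelial-like changes was 0.41 (SE 0.12, adjusted p = 0.0596) and passed the threshold only with the intron-length trend removed (0.48, adjusted p = 0.0273) or without deligated 2.

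Among receiving lymphoid cells, Il6st was at 20.5, 11.6, 16.1 and 14.1 in T cell-like and 2.09, 5.92, 6.95 and 2.81 in NK/innate lymphoid-like cells. Macrophage-like cells had 57.4, 35.8, 16.002 and 15.1 and Il6st was called higher there (1.31, SE 0.24, edgeR adjusted p = 0.0138), a call lost without either homeostatic library and at a finer clustering (adjusted p up to 0.369). Endothelial markers in the macrophage-like class summed to 787, 677, 301 and 152 CPM and fibroblast markers to 158, 196, 21.2 and 6.52, and their part in the result was not tested. In epithelial-like cells Il6st (81.3, 51.4, 9.41 and 13.0) and Kitl (460, 164, 43.4 and 46.8) were both called higher (2.07 and 2.27, adjusted p = 0.0301 and 0.0334). Endothelial markers in that class summed to 378, 341, 169 and 137 CPM, and their part in these 2 results was not tested. Krt5 was at 232, 285, 26.02 and 42.2 and Krt14 at 472, 500, 49.8 and 88.5, so the makeup of the class moved with both genes. Within the cluster led by Krt14, Il6st was at 94.6, 208, 50.0 and 68.1 CPM (20, 10, 19 and 38 UMIs) and Kitl at 525, 625, 295 and 271, deligated libraries higher without overlap, at a smaller ratio of group means than in the whole class. In the other epithelial-like cells Il6st was at 0, 6.03, 6.35 and 7.08, with 0 and 1 UMIs in the deligated libraries, and Kitl at 58.2, 30.1, 24.4 and 23.0, with 2 and 5. This split, made after the values were seen, was not tested. Leaving out either homeostatic library, or thinning, ended both calls. That of Il6st was also lost without deligated 1 and under a stricter cell filter (adjusted p up to 0.744 over all settings), and that of Kitl reached 0.395.

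Next to Il6st on chromosome 13 (112464070 to 112510086, plus strand, GRCm38) lies Il31ra (112519898 to 112594360, minus strand), which encodes the interleukin-31 receptor. Il31ra had at most 1 UMI per class in each deligated library and 30 to 1429 UMIs per class in the homeostatic ones, at 32.3 to 99.6 CPM in all 8 classes. It was called lower in each class by edgeR (largest adjusted p = 0.00963). A group difference spread over every cell type coincides here with the 2 software releases, and the pair cannot be told apart. Il27 showed the same order, with 0 and 0 against 29 and 33 UMIs in endothelial-like cells and 0 and 0 against 14 and 11 in NK/innate lymphoid-like cells.

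No member was called in the edgeR test of a difference between classes in their change. For fibroblast-like against endothelial-like cells 0 of 9 were called, where 6.32% of genes were. An unadjusted p under 0.05 was found for 2 of these 9 and for 2957 of 14389 genes. For fibroblast-like against mural-like cells 0 of 5 were called (1.55% of genes), with 1 of 5 and 1645 of 11786 genes at that p. For endothelial-like against mural-like cells 0 of 7 were called (0.976%), with 0 of 7 and 1287 of 13827 genes at that p. For NK/innate lymphoid-like against T cell-like cells 0 of 7 and 0% of genes were called. Here 4 of 7 and 641 of 11986 genes were at that p. Of these 4, Il1rl1 (23 and 30 UMIs) passed the low-count filter in neither class alone, and Il15 did not in T cell-like cells.

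Of the signalling genes around these cytokines, 64 in 4 lists, between 20 and 37 of those tested did not pass in each class. In endothelial-like cells 11 of 40 were higher and 8 lower (all genes 13% and 22.4%), or 9 and 5 with the intron-length trend removed. NK/innate lymphoid-like cells had 10 and 14 of 44 (17% and 27.3%), or 8 and 10. ILC2-like cells had 8 and 4 of 32 (8.2% and 16.5%), or 5 and 2.

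Fibroblast-like cells had 5 higher and 8 lower of 39 (8.75% and 18.4%), or 7 and 6 with the trend removed, and mural-like cells 1 and 3 of 29 (1.21% and 6.72%), or 0 and 2. T cell-like cells had 5 and 5 of 44 (4.38% and 13.7%), or 2 and 3. Macrophage-like cells had 9 and 9 of 46 (8.18% and 13.2%), or 9 and 6, and epithelial-like cells 0 and 1 of 38 (2.67% and 0.658%), or 1 and 1.

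Socs3, the feedback inhibitor induced by gp130 signalling, was higher in several stromal classes. Endothelial-like cells had 106, 143, 40.1 and 36.7 CPM (log2 fold change 1.71, SE 0.13, edgeR adjusted p = 0.000352). In fibroblast-like cells it was at 61.4, 65.9, 41.1 and 30.3 (0.89, SE 0.17, adjusted p = 0.00388, or 0.12 without homeostatic 2) and in mural-like cells at 26.4, 51.8, 9.86 and 7.86 (2.12, SE 0.47, adjusted p = 0.0195, lost with the intron-length trend removed at 0.0518 and without either homeostatic library). The early genes summed to 6931, 8637, 4548 and 4326 CPM in the endothelial-like, 3191, 3344, 2044 and 1813 in the fibroblast-like and 2718, 4247, 1654 and 1809 in the mural-like class. Both deligated libraries were the higher in each, and the part of these genes in the results was not tested. Lifr, the receptor chain that pairs with gp130 for Lif, was lower in mural-like cells (70.5, 79.3, 132 and 141; -0.87, SE 0.16, adjusted p = 0.00684) but not with the trend removed (-0.50, adjusted p = 0.129) or without homeostatic 2 (0.122).

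Stat5b, a transcription factor downstream of interleukin-7 and interleukin-15, was lower in fibroblast-like (40.6, 50.1, 129 and 126; -1.43, SE 0.14, edgeR adjusted p = 6.57e-05), T cell-like (27.6, 22.5, 99.0 and 75.1; -1.69, SE 0.22, adjusted p = 0.00167) and ILC2-like cells (18.9, 9.91, 48.6 and 43.4; -1.71, SE 0.45, adjusted p = 0.00743, or 0.108 with the trend removed and up to 0.3 without deligated 2 or homeostatic 1). Traf6, an adaptor of the interleukin-1 receptor family that includes ST2, was lower in NK/innate lymphoid-like cells (9.05, 13.9, 41.1 and 36.4; -1.61, SE 0.17, adjusted p = 9.5e-05) and in fibroblast-like cells (9.01, 11.9, 29.9 and 27.6; -1.40, SE 0.22, adjusted p = 0.0012).

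Downstream of ST2, the ILC2-like cells held 2, 3, 1 and 1 UMIs of Il13 and 3, 16, 11 and 7 UMIs of Il5, below the filter on low counts. Areg, which encodes the tissue repair factor amphiregulin and was among the naming markers, was at 450, 340, 224 and 333 CPM. It was called higher (0.61, SE 0.19, edgeR adjusted p = 0.0231), but not with the intron-length trend removed (0.369) or without homeostatic 1 (0.367). Il18r1, the receptor of the related alarmin interleukin-18, was lower at 3.78, 35.4, 117 and 142 (-2.16, SE 0.37, adjusted p = 0.000113). Csf2, which encodes the growth factor GM-CSF, was at 22.7, 232, 34.0 and 53.0, so that deligated 1 lay below both homeostatic libraries. Its call (1.96, SE 0.49, edgeR adjusted p = 0.00491) was lost without deligated 2 (0.505).

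Other receivers were less well covered. Kit, the receptor for Kitl, was at 37.8, 41.1, 65.6 and 48.2 CPM in ILC2-like cells (-0.36, SE 0.34, edgeR adjusted p = 0.479) and at 12.4, 8.33, 5.47 and 7.03 in NK/innate lymphoid-like cells (0.76, SE 0.28, adjusted p = 0.0516, or 0.00623 with the intron-length trend removed). Macrophage-like cells had 16, 7, 10 and 7 Kit UMIs.

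**Figure D5:**
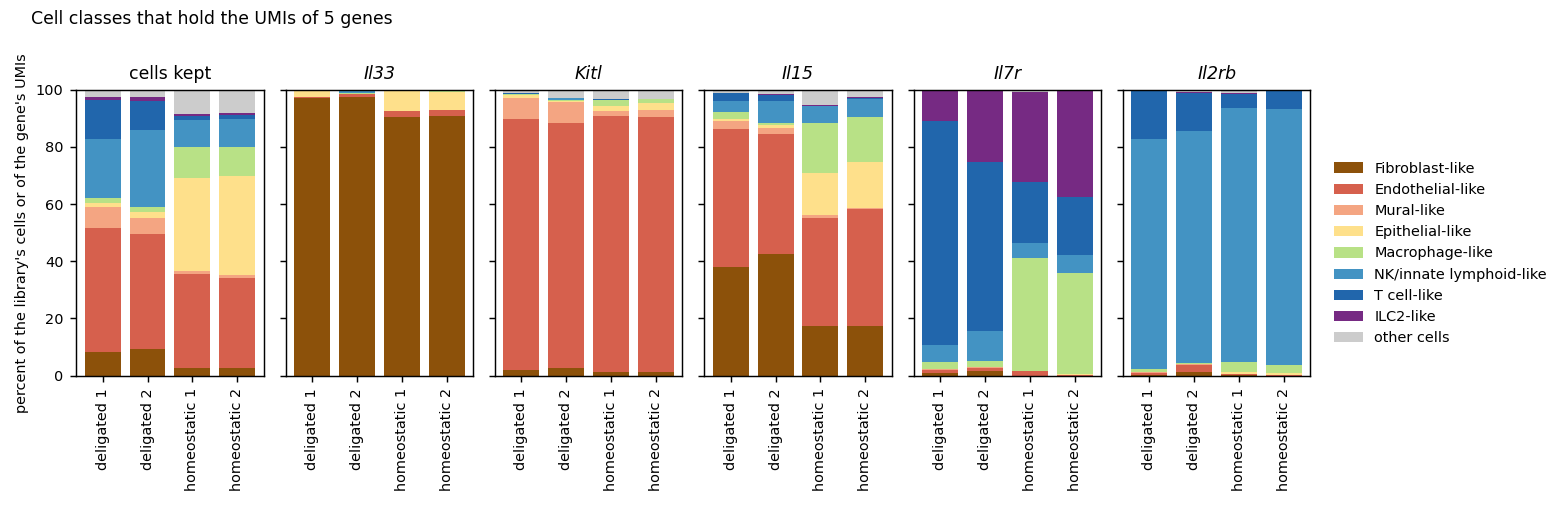
Share of retained cells (left) and of the UMIs of Il33, Kitl, Il15, Il7r and Il2rb (percent) that falls in each class, 1 bar per library. Fibroblast-like cells hold 90.6% to 97.5% of Il33 and endothelial-like cells 85.6% to 89.6% of Kitl, while the Il7r pool is mostly T cell-like in the deligated libraries (78.4% and 59.1%) and spread over macrophage-like, ILC2-like and T cell-like cells in the homeostatic ones.

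The genes whose levels over the 32 sums of class and library ranked most like each member were read from 12467 genes as a description. Those most like Il33 were Smoc2, Dpep1 and Vcan (Spearman 0.843, 0.826 and 0.815), and those most like Kitl were Crip2, Efnb2 and Timp3 (0.96, 0.96 and 0.95). Il2rb was nearest to Nkg7, Ctsw and Tnfrsf9 (0.96, 0.96 and 0.95), Il7r to Ly9, Xlr4b and Gpr183 (0.94, 0.93 and 0.93), and Il15 to Snx7, Nupr1 and Cdo1 (0.86, 0.84 and 0.83). Il6st was nearest to Kctd17, Klf7 and Col4a1 (0.96, 0.94 and 0.94). For Il7, whose counts are low, the best value was 0.63. The sums share libraries and depth, so no p is given.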

How the data were processed

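Single-cell RNA-seq of 4 libraries (2 deligated, 2 homeostatic) was read as UMI counts per gene and cell barcode, as deposited by the authors. These counts were made with Cell Ranger 6.0.1 (deligated) and 7.0.0 (homeostatic) per the file headers, while the submitters' processing notes name Cell Ranger 6.0.1, Seurat and mm10 for all. Strand and intron settings are not given in the sources used here.

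Cells with at least 300 genes and at most 10% mitochondrial UMIs were retained and predicted doublets removed with scanpy 1.11.5 (0.8% per 1000 cells). Clustering used 3000 variable genes, 30 components, 20 neighbours and Leiden resolution 1. A cluster was named from at least 3 markers, each in at least 10% of its cells and 2 times the other cells. The ILC2-like clusters were named in a second step with lymphoid lists, chosen with the clusters in view. Members and gene lists were chosen with earlier results of these data known.

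Counts were summed by class and library and tested with edgeR 4.0.16 (R 4.3.3; TMM, low-count filter, quasi-likelihood, Benjamini-Hochberg over all genes of the class, threshold 0.05), 2 against 2 libraries. Differences between classes were tested as interaction terms. Of 80 pairs of member and class, 43 passed the filter, and fold changes are given for called pairs or those with a group mean of at least 10 CPM (34 pairs, 15 called). Pathway genes were named by size of change among called genes of each list and class, and other genes were added after their values were seen. On simulated counts with 200 changed genes, 70.4% of changes of 1 on the log2 scale were recovered in endothelial-like, 52.3% in fibroblast-like and 39.8% in ILC2-like cells. Recovery was 28.6% in mural-like and 13.9% in epithelial-like cells. The simulation gave every gene the same fixed spread between libraries, so recovery in the real data may be lower. Alternatives were DESeq2 1.42.0 (size factors or Wald test), no filter, stricter cells (500 genes, 5% mitochondrial), resolution 2, thinning to 1000 UMIs, removal of a fitted trend with intron length, each library left out, and a block by replicate number.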

Additional observations from a re-analysis of the deposited data

Results flagged for a closer look

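Il6st, the gp130 chain, had differences of opposite sign in different classes, most of them not called. In ILC2-like cells both deligated libraries lay below both homeostatic ones (30.2 and 28.3 against 48.6 and 41.0 CPM), with a log2 fold change of -0.48 that was not called (edgeR adjusted p = 0.387). In endothelial-like, epithelial-like, fibroblast-like, macrophage-like and mural-like cells both deligated libraries lay above both homeostatic ones, and the difference was called in the epithelial-like and macrophage-like cells alone. The ILC2-like values came from 8, 20, 20 and 17 UMIs, and the difference between classes was not tested.

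Kitl was higher in both deligated libraries in epithelial-like cells, with a log2 fold change of 2.27, and lower in both in endothelial-like (not called) and fibroblast-like cells. The epithelial-like values came from 113, 35, 235 and 271 UMIs. Of these, 111, 30, 112 and 151 lay in the cluster led by Krt14, which carried 86.0%, 22.4%, 7.02% and 9.64% of the UMIs of the class. This difference was not tested either.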

How the results depend on the processing

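Of 43 tested pairs of member and class, 15 were called, and the share of all genes called ran from 3.32% to 44.2% by class. Fold changes are given for 34 pairs, a choice that includes every called pair, so 15 of 34 is not a rate. Il7r in fibroblast-like and Lif in ILC2-like cells are among the 15 and passed the filter through the deligated libraries alone. Of the 15 called, 0 turned direction and 4 kept their call under every alternative that could be run. The 4 were Il15 in fibroblast-like and endothelial-like cells, Il7r in NK/innate lymphoid-like cells and Lif in ILC2-like cells. Lif was not tested after thinning and was tested only through the group where it was high, so that its stability supports nothing. Of the 19 given but not called, 12 turned direction under some alternative, and the cause was not tested. Calls were gained without deligated 1 by Kitl in endothelial-like and Il2rb in endothelial-like, NK/innate lymphoid-like and T cell-like cells. Without deligated 2 they were gained by Il6st in endothelial-like and fibroblast-like, Il7r in endothelial-like, Il15 and Il33 in epithelial-like, Kitl in macrophage-like and Il2rb in T cell-like cells.

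Directions turned as follows. With the intron-length trend removed, Kitl was 0.10 (endothelial-like cells) and 0.11 (mural-like cells), and Il2rb -0.0035 in NK/innate lymphoid-like cells. After thinning, Il33 was -0.073 in fibroblast-like, Il7r -0.15 in ILC2-like, Il2rb 0.51 in T cell-like and Kitl -1.78 in macrophage-like cells, the last also -1.12 at resolution 2. Without the filter Il2rb was 0.062 in T cell-like cells, and the fibroblast minus mural difference -0.18 for Il15 (-0.056 with DESeq2 size factors) and -0.075 for Il6st. Leaving out 1 library at a time gave -0.012 to 0.18 for Il6st in endothelial-like cells, -0.345 to 3.385 for Il33 in epithelial-like cells, -0.11 to 0.16 for Il33 in fibroblast-like cells, -0.34 to 0.087 for Il1rl1 in ILC2-like cells, -0.86 to 0.91 for Il2rb in ILC2-like cells. For Kitl it gave -0.19 to 0.93 in macrophage-like and -0.32 to 0.00037 in mural-like cells, for Il2rb -0.11 to 0.40 in NK/innate lymphoid-like and -0.60 to 0.41 in T cell-like cells, and for Il6st -0.28 to 0.58 in T cell-like cells. The differences between classes ranged over -0.72 to 0.44 (Il15) and -0.036 to 0.17 (Il6st) for fibroblast minus mural, and -0.24 to 0.13 (Kitl) and -0.46 to 0.76 (Il15) for endothelial minus mural.

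Genes called changed by over 1.5 times as follows. DESeq2's Wald test gave 454 (ILC2-like), 1041 (T cell-like), 2031 (fibroblast-like), 1574 (macrophage-like) and 491 (mural-like). Thinning gave 245, 550, 1057, 503 and 248 in these classes, 2456 in NK/innate lymphoid-like, 2472 in endothelial-like and 227 in epithelial-like cells. Trend removal gave 483, 735, 2022, 1562 and 376 in the first 5 of these. It moved the share of calls that were higher from 33.2% to 46.2%, 24.3% to 40%, 32.2% to 46.0%, 38.2% to 52.1% and 15.2% to 36.2%. No filter gave 775 in ILC2-like, 2697 in T cell-like, 1367 in epithelial-like and 3796 in macrophage-like cells, and resolution 2 gave 556 in epithelial-like and 1239 in macrophage-like cells. Leaving out 1 library at a time gave 838 to 1331 (ILC2-like), 3055 to 6725 (NK/innate lymphoid-like), 615 to 2597 (T cell-like), 1924 to 7889 (endothelial-like), 62 to 2888 (epithelial-like), 1072 to 4541 (fibroblast-like), 909 to 3867 (macrophage-like), 266 to 1090 (mural-like).

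Calls of members became 0 in ILC2-like, T cell-like and epithelial-like and 1 in NK/innate lymphoid-like, endothelial-like and fibroblast-like cells after thinning. They became 0 in T cell-like cells with trend removal or stricter cells, 1 in mural-like cells with stricter cells, 1 in endothelial-like cells with the Wald test, 5 in fibroblast-like cells without the filter and 1 in macrophage-like cells at resolution 2. Trend removal gave 1 call for fibroblast minus endothelial. Leaving out 1 library at a time gave 2 to 4 (NK/innate lymphoid-like), 0 to 2 (T cell-like), 1 to 4 (endothelial-like), 0 to 5 (epithelial-like), 1 to 4 (fibroblast-like), 1 to 3 (macrophage-like), 0 to 1 (mural-like) calls of members, 0 to 1 for the NK/innate lymphoid minus T cell difference and 0 to 3 for fibroblast minus endothelial.

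Replicate numbers are not known to mark a shared animal or day. Same-numbered libraries did not deviate together over genes (correlations from -0.20 to 0.05). With 1 pair of differences per class, this cannot exclude a shared day or animal. With the replicate block, epithelial-like cells had 621 genes called and endothelial-like cells 1 member. The crossed pairing, added after seeing the data, gave 1253 genes in mural-like cells. Low counts limit Il6, Il7 and Lif, and 2 libraries per group limit every test.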

Other observations

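Schwann-like cells, too few for a test (27, 61, 44 and 40 per library), also carried Il6st at 257, 293, 146 and 284 CPM and Kitl at 116, 84.3, 111 and 103 CPM. Both ranges overlapped between the groups.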
